A study of Mus musculus with 14 samples.

Results

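The collagen chain genes are the protein-coding genes whose symbol has the form Col, a type number, the letter a and a chain number; 44 of the 55335 genes in the deposited count table met that rule, out of 21849 protein-coding genes. They were divided by textbook class into 11 fibrillar collagens, 8 basement membrane collagens and 25 other collagens. The last class held 6 type VI beaded-filament chains, 9 fibril-associated chains (FACIT), 3 short-chain network chains, 4 transmembrane chains and 3 remaining chains. Expression was measured by RNA sequencing of mouse bone marrow cells from a reporter strain with the genotype Cdh5 CRE Rosa26 TdTomato, in which cells that have used the endothelial Cdh5 promoter, or descend from such cells, carry the red protein TdTomato. The sort took cells that were negative for lineage markers and for the blood cell protein CD45 and positive for TdTomato, and all 14 libraries came from that same genotype and gate. The 4 untreated libraries (replicates 1 to 4) were compared with 5 libraries after 500 cGy of total body irradiation from a caesium source (TBI, replicates 1, 3, 4, 5 and 6), 3 after 20 µCi of an IgG radioimmunotherapy without a target (IgG RIT) and 2 after 20 µCi of CD45-targeted radioimmunotherapy (CD45 RIT), with harvest 8 days after treatment. Radioimmunotherapy uses an antibody as the carrier of a radionuclide, here astatine-211 for the CD45-targeted antibody according to the study's title. The labels do not say that the libraries of a group came from separate animals, so the p-values below measure the spread between these samples, which may be partly technical, and they give neither the age nor the number of cells sorted.

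Collagens are built from 3 chains wound into a triple helix. Fibrillar collagens assemble into banded fibrils, with type I as the bulk of bone matrix, type II that of cartilage, and types V and XI in the core of the fibrils; type IV forms the sheet-like network of basement membranes, including those under vessel endothelium. Type VI forms beaded filaments around cells, type IX decorates cartilage fibrils, type X is made by hypertrophic chondrocytes, and type VIII is a short-chain network collagen of vessel walls.

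Total counts per library ranged from 16412779 to 31077588, and 3 counts, used as the detection floor of a library, were worth between 0.0965 and 0.183 CPM, the read count relative to the library's total count. Between 27 and 42 of the 44 collagen genes had at least 1 count in a library. The labelled cell type was checked against its markers before the collagens were read: Cdh5 itself had between 0 and 6 counts in every library, while a list of 15 endothelial markers summed to 173 to 218 CPM in untreated, 66.4 to 145 in TBI, 63.9 to 72.4 in IgG RIT and 82.2 and 302 CPM in CD45 RIT libraries. Markers of CXCL12-rich stromal reticular cells, a perivascular fibroblast-like marrow population, summed to more than that in untreated libraries (10 genes, 1215 to 2703 CPM). Cxcl12 itself made up the larger part of this sum in every library, so the sums and ratios with these markers below rest mainly on it. Erythroid markers summed to 7728 to 14444 CPM in untreated libraries, 24358 to 42907 in TBI replicates 1, 3, 4 and 5, 173258 in TBI replicate 6, 131429 to 139121 in IgG RIT, and 190868 and 47436 CPM in CD45 RIT replicates 1 and 2. TBI replicate 6 stood apart from the other TBI libraries in this list, and it is also the only TBI library numbered 10 or higher by the submitters; all RIT libraries carry such numbers and all untreated libraries lower ones. The labels do not call these numbers a batch.

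Of the 44 genes, 37 passed the filter on low counts and 21509 genes were tested in all. The 7 that were not tested were Col14a1, Col15a1, Col17a1, Col19a1, Col6a4, Col6a6 and Col8a2. Chain levels were low for 6 of these in every library (0 to 22 counts), but Col8a2, a partner of the type VIII chain, had 1738 counts in CD45 RIT replicate 2 and 0 to 5 in the other 13 libraries. In what follows, "higher" and "lower" are used of genes with an adjusted p under 0.05 in edgeR's quasi-likelihood test over all 14 libraries, with Benjamini-Hochberg adjustment over the 21509 genes. CPM of a single gene is on the TMM-scaled library size, and a fold change is log2 with its standard error (SE).

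The promoter regions of 4 collagen genes that the results turn on are printed here from RefSeq's table for GRCm38.p6, because their genes responded in different directions: Col10a1 rose after IgG RIT, Col6a2 and Col8a1 fell after TBI and rose after CD45 RIT, and Col3a1 rose after CD45 RIT. Each line is the 250 bases before a RefSeq start site, 5′ to 3′ on the gene's strand, and capitals mark motifs searched on both strands. Col6a2 has another RefSeq start site at 76623404, whose window is not printed. In Col3a1 and Col10a1 the motif is TATAAA, as found in the promoter element named after it. In Col6a2 and Col8a1 it is GGGCGG, the core of a binding element of Sp factors, which appears here as its reverse complement CCGCCC.
Col3a1 (chr1:45311288-45311537, plus strand): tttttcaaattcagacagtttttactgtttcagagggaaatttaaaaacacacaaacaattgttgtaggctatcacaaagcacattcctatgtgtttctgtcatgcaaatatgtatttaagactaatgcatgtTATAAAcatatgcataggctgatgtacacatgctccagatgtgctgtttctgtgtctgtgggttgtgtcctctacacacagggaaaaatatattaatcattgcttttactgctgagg
Col10a1 (chr10:34389731-34389980, plus strand): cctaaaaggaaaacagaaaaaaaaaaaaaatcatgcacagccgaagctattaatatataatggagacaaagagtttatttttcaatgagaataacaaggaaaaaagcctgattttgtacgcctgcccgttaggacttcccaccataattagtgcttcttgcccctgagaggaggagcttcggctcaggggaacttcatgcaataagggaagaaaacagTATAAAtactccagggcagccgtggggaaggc
Col6a2 (chr10:76623631-76623880, minus strand): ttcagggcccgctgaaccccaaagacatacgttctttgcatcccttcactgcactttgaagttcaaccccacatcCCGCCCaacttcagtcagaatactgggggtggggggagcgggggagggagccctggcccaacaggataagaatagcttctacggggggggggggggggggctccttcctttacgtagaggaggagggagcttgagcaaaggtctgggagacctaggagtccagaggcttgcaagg
Col8a1 (chr16:57754738-57754987, minus strand): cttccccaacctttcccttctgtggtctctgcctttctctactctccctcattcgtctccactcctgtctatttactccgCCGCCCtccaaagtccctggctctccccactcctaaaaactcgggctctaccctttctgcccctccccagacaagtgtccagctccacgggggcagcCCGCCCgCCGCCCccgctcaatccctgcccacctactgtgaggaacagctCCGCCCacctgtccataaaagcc

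The TATAAA of Col10a1 begins 32 bases before its start site, and that of Col3a1 begins 117 bases before. In the printed windows Col6a2 had 1 match to GGGCGG, beginning 175 bases before the start, and Col8a1 had 4, beginning 170, 73, 66 and 23 bases before it. No match overlapped another. RefSeq windows that run from 250 bases before to 50 bases after the start were matched for 35 of the 44 genes (38 windows). Only the 250 bases before the start were searched. There GGGCGG was found in 57.9% of these windows and in 32.7% of all 32851 windows. TATAAA was found in 13.2% and 12.4%, and CCAAT, searched on both strands like the others, in 34.2% and 33.8%. These matches describe the letters in the windows only.

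Fibrillar collagens dominated the untreated cells. The summed level of the 11 fibrillar genes, as CPM of the total count, was 6501, 3674, 2160 and 5147 in untreated replicates 1 to 4, against 55.2, 40.0, 32.3 and 41.2 CPM for the 8 basement membrane genes and 166, 155, 147 and 220.1 CPM for the 25 other genes. Type I, the pair Col1a1 and Col1a2 that makes bone collagen, took 81.5 to 90.9% of all collagen counts in the 4 untreated libraries. Per length of the longest coding transcript, Col1a2 stood at 374 CPM per kilobase in untreated cells and Col1a1 at 233. The next level per length was that of Col6a1 at 11.0 CPM per kilobase, ahead of Col11a2 at 8.63, Col5a1 at 7.19 and Col5a2 at 6.96. Col4a1 and Col4a2, the type IV chains found in nearly all basement membranes, stood at 2.91 and 2.16 CPM per kilobase. Type III, the fibrillar partner of type I in soft tissue, stood at 4.89.

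**Figure D1:**
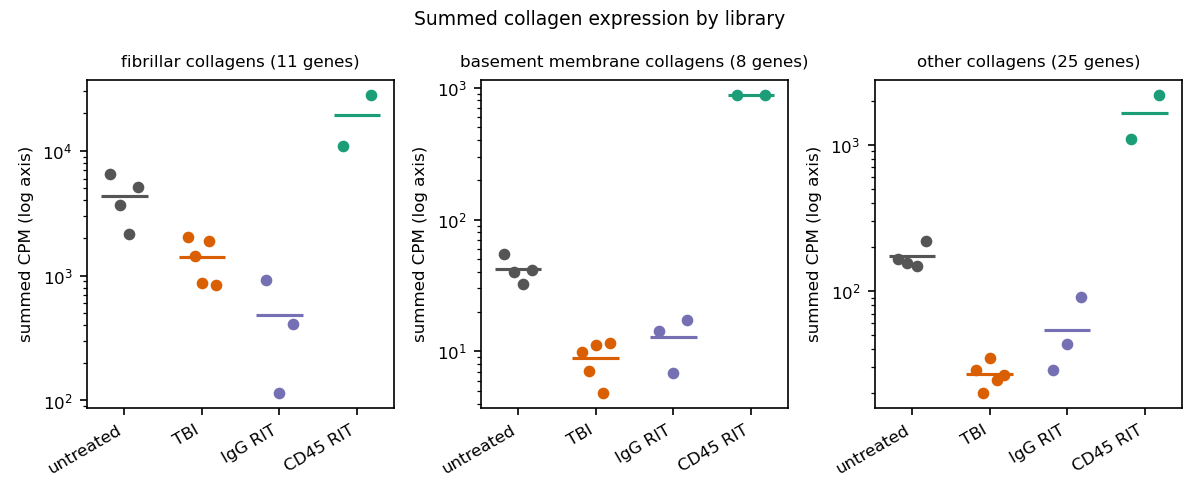
Summed CPM of the 3 collagen classes (log axis) in each library, on the total count, with points for libraries and bars for group means. In each class the 2 CD45 RIT libraries lie above all untreated libraries and the TBI libraries lie below all of them.

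All 3 classes had lower sums in TBI and IgG RIT libraries than in untreated libraries and higher sums in CD45 RIT libraries, but not in the same proportion. The fibrillar sum was 4371 ± 1872 CPM (SD, n = 4) without treatment, 1421 ± 561 CPM after TBI (SD, n = 5), 482 ± 409 CPM after IgG RIT (SD, n = 3), and 10853 and 28048 CPM in the 2 CD45 RIT libraries. The basement membrane sum was 42.2 ± 9.51 CPM in untreated, 8.90 ± 2.89 in TBI, 12.8 ± 5.36 in IgG RIT, and 880.1 and 879 CPM in CD45 RIT (same n). The sum of other collagens was 172 ± 33.0, 26.9 ± 5.41 and 54.4 ± 32.5 CPM in those groups, and 1093 and 2191 CPM in CD45 RIT. No library overlapped between untreated and any treatment in any class.

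As ratios of these means, CD45 RIT libraries were 4.45 times the untreated level for fibrillar, 20.9 times for basement membrane and 9.54 times for other collagens; with TMM-scaled library sizes the ratios were 7.07, 33.9 and 15.2. After TBI the untreated level was 3.07, 4.74 and 6.40 times the treated level for the 3 classes, in the same order. After IgG RIT it was 9.06, 3.28 and 3.16 times, or 6.15, 2.26 and 2.22 times with TMM scaling. The fibrillar fall in IgG RIT libraries was mostly of type I: without Col1a1 and Col1a2 the fibrillar sum was 312 ± 85.5 CPM in untreated (SD, n = 4) and 111, 73.2 and 140 CPM in IgG RIT replicates 1 to 3, a ratio of means of 2.89. Fewer cells of a collagen-making type and less collagen RNA per cell cannot be told apart in such bulk samples.

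The make-up of the collagen counts varied most in IgG RIT libraries. Type I made up 79.9 to 90.9% of collagen counts in TBI libraries, 84.0%, 24.9% and 52.3% in IgG RIT replicates 1, 2 and 3, and 76.5% and 80.0% in CD45 RIT replicates 1 and 2. IgG RIT replicate 2 had only 3762 collagen counts in all, and its type I share of 24.9% has a Wilson 95% interval of 23.5 to 26.3%, which covers counting error only. In that library types V and XI took 32.1% and type VI 15.1%. Type IV took 6.81% of collagen counts in CD45 RIT replicate 1 and 2.71% in replicate 2, against 0.653 to 1.37% in untreated libraries.

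**Figure D2:**
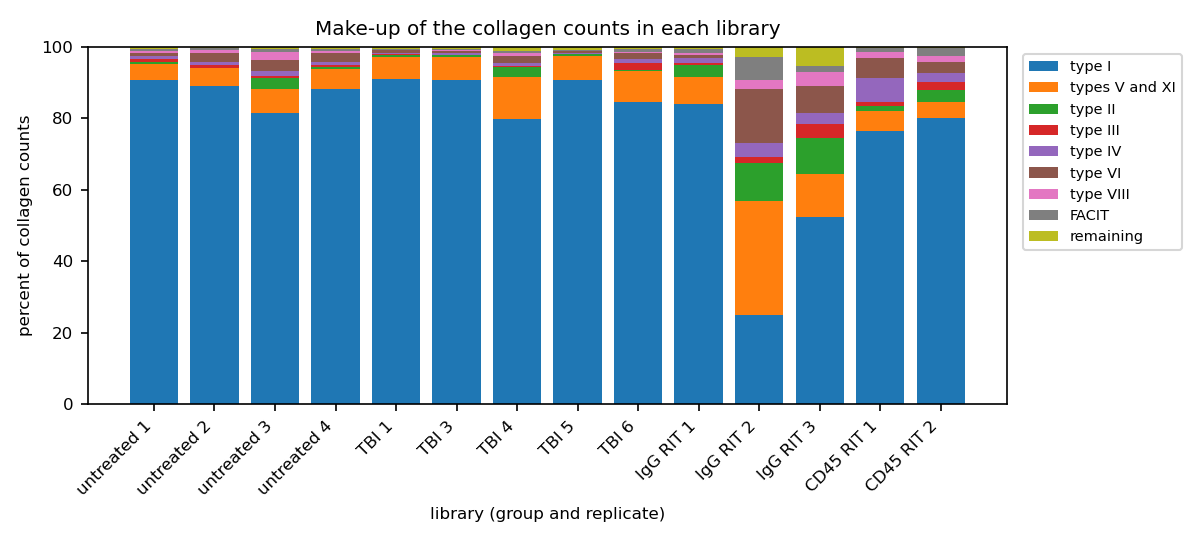
Percent of all collagen counts in each library taken by each collagen type (stacked bars that sum to 100). Type I fills 76.5 to 90.9% of the bar in every library except IgG RIT replicates 2 (24.9%) and 3 (52.3%).

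Total body irradiation was compared with no treatment first. After TBI, 4 collagen genes were lower and 0 were higher among the 37 tested, and all 4 encode chains of non-fibrillar collagens: Col4a1, the type VI chains Col6a1 and Col6a2, and Col8a1. Over all genes tested, 4.31% were called in this comparison (0.921% higher and 3.38% lower). Of the 37 collagen genes 16 had an unadjusted p under 0.05, and DESeq2 called 10. Of these 10, Col4a4 and Col4a5 (0 counts in every untreated library and 0 to 16 in TBI libraries) were higher. The 4.31% is of edgeR's calls. For unadjusted p and DESeq2, here and below, the share over all genes was not counted. None of the 11 fibrillar genes was called in edgeR's test; 6 of them had an unadjusted p under 0.05, and DESeq2 called 1, Col11a2, lower. The median fold change was -1.51 (log2) over the 11 fibrillar genes and -2.17 over the 19 other collagens tested, against -0.16 over all genes tested. Over the 7 tested basement membrane genes it was 2.54, or 1.06 with the 3 genes at the detection floor set to their bounds, although the 1 call in this class, Col4a1, was lower. The 2.54 is the value of Col4a3, and the positive values were of the scarce Col4a3, Col4a4, Col4a5 and Col4a6. The more abundant Col4a1 and Col4a2 had -2.44 and -2.73, and Col18a1 had -0.38.

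Col4a1 (basement membrane, chr8:11198423-11312826, GRCm38) stood at 17.9, 20.8, 17.6 and 20.6 CPM in untreated replicates 1 to 4 and at 4.03, 2.25, 2.86, 1.73 and 6.96 CPM in TBI replicates 1, 3, 4, 5 and 6. The groups did not overlap, and TBI replicate 6 was the highest of its group. The fold change was -2.44 (SE 0.37, adjusted p 0.00405). Col4a2, which encodes the chain that joins the Col4a1 product in the type IV trimer, stood at 25.4, 11.5, 8.67 and 10.1 CPM in untreated and 1.95, 3.11, 3.77, 0.339 and 1.29 CPM in TBI libraries. These groups did not overlap either, and the value of -2.73 (SE 0.83) did not pass the test (adjusted p 0.0869). The genes lie head to head, and their annotated first exons overlap by 22 bases, so reads there could be assigned to either.

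Type VI collagen showed the same picture for its common chains. Col6a2 stood at 29.7, 24.6, 24.0 and 38.4 CPM in untreated and at 3.89, 3.01, 5.10, 2.91 and 6.31 CPM in TBI libraries. There was no overlap between the groups, and the fold change was -2.78 (SE 0.44, adjusted p 0.00442). Col6a1 stood at 23.9, 50.04, 33.3 and 73.6 CPM in untreated and 6.97, 5.01, 11.2, 4.67 and 10.3 CPM in TBI libraries, a fold change of -2.57 (SE 0.48, adjusted p 0.0111) without overlap. Col6a3, the largest type VI chain, was scarce, at 0.890 to 5.65 CPM in untreated and 0 to 1.10 CPM in TBI libraries, and its value of -3.16 (SE 0.97) did not pass (adjusted p 0.0918). Col6a5 had 0 to 22 counts in these libraries, and Col6a4 and Col6a6 had at most 3.

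Col8a1, a short-chain collagen of vessel walls, had the largest fall of the 4 called genes. It stood at 30.7, 19.5, 41.7 and 27.4 CPM in untreated and at 2.05, 3.35, 5.82, 1.25 and 3.37 CPM in TBI libraries. Every TBI library was below every untreated one, and the fold change was -3.24 (SE 0.54, adjusted p 0.00598). Col16a1, a fibril-associated chain, stood at 9.74, 8.19, 5.50 and 6.44 CPM in untreated and at 0.460, 0, 0.0477, 0.576 and 1.43 CPM in TBI libraries. Its value of -3.95 (SE 1.06) had an adjusted p of 0.0571, so it was not called, although the groups did not overlap. Without TBI replicate 6, Col16a1 and Col3a1 were called lower beside the same 4 genes, which kept their calls when any 1 library was left out.

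The collagen genes that stayed uncalled after TBI included scarce chains. Col4a3 had 2 to 8 counts in untreated and 4 to 26 in TBI libraries, and Col4a6 had 0 to 2 and 0 to 11. Type IX chains had 0 to 48 counts in untreated and 0 to 23 in TBI libraries, and Col10a1 had 0 to 6 and 4 to 10. Col12a1 stood at 1.82 to 5.04 CPM in untreated and 0 to 2.00 CPM in TBI libraries, and Col22a1 at 3.37 to 15.8 and 0.760 to 7.10 CPM, with overlap for both.

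Among the fibrillar chains the type I genes overlapped or nearly overlapped between untreated and TBI libraries. Col1a1 stood at 2071, 1144, 630.2 and 1692 CPM in untreated and at 689, 497, 273, 614 and 350.4 CPM in TBI libraries, and Col1a2 at 2899, 1703, 946 and 2458 against 910.4, 620.2, 411, 871 and 531 CPM. Untreated replicate 3 was the lowest untreated library for both, below the highest TBI library for Col1a1. The values were -1.51 (SE 0.70, adjusted p 0.273) for Col1a1 and -1.58 (SE 0.60, adjusted p 0.176) for Col1a2. Col5a1 was the steadiest fibrillar chain, at 45.9 to 76.0 CPM in untreated and 36.9 to 57.5 CPM in TBI libraries (-0.37, SE 0.18, adjusted p 0.324), and its trimer partner Col5a2 stood at 25.7 to 66.5 and 11.9 to 21.7 CPM (-1.38, SE 0.51, adjusted p 0.161). Col11a2, a type XI chain, came nearest to the threshold (-1.86, SE 0.52, adjusted p 0.0678). Col2a1 stood at 6.22 to 59.1 CPM in untreated and 4.23 to 23.9 CPM in TBI libraries, and its value of -1.61 (SE 0.68) did not pass (adjusted p 0.228). Col3a1 stood at 15.6 to 44.5 CPM in untreated and at 1.52 to 5.73 CPM in 4 TBI libraries, with 20.8 CPM in TBI replicate 6 (-2.06, SE 0.83, adjusted p 0.200 over all 5).

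**Figure D3:**
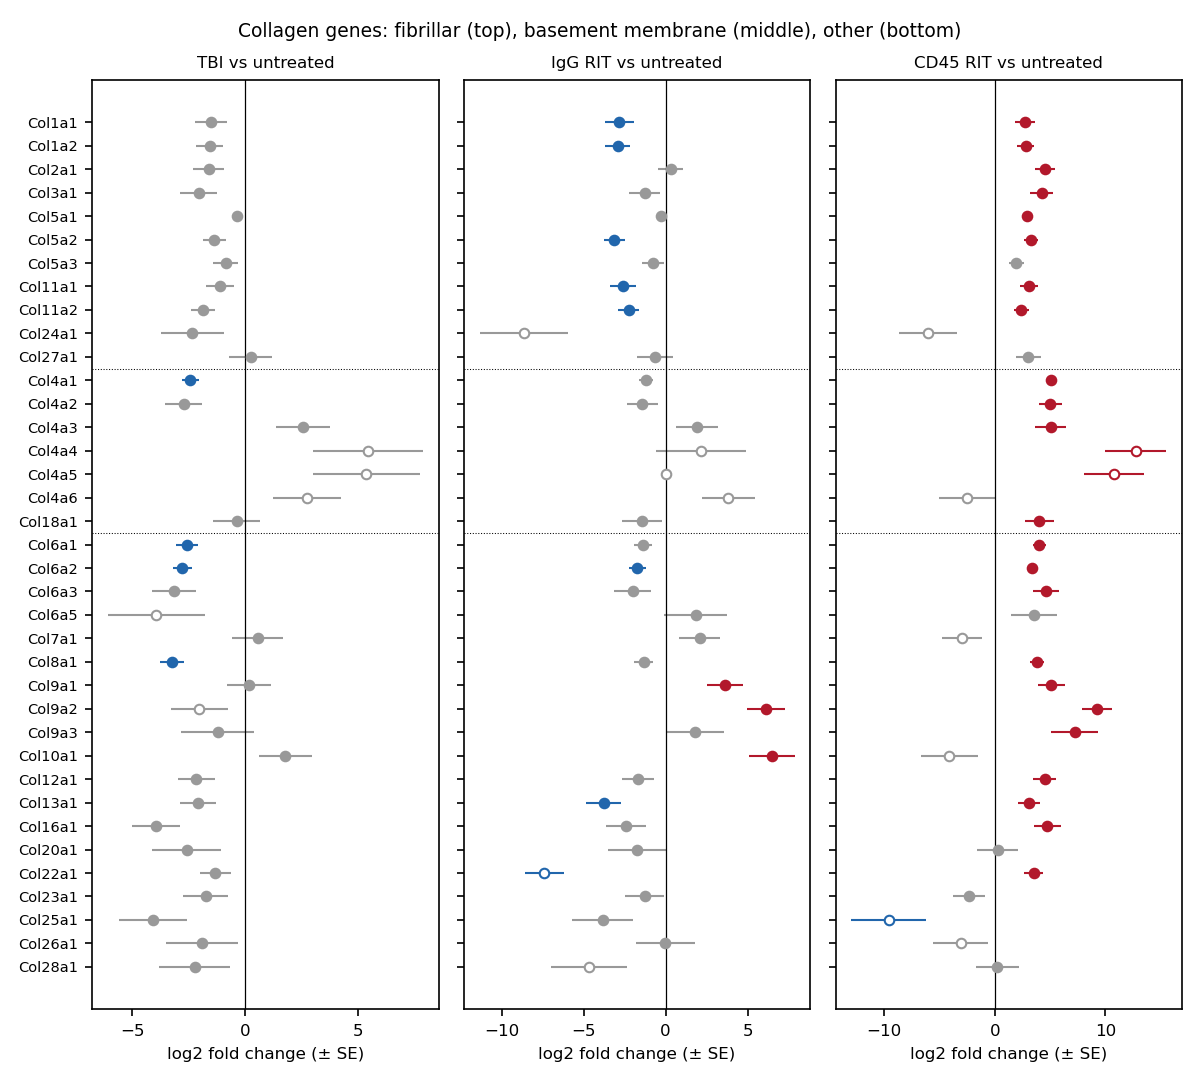
Log2 fold change (points) with SE (lines) against untreated cells for the 37 tested collagen genes, in TBI, IgG RIT and CD45 RIT (left to right, axes with separate ranges); red genes were called higher, blue lower and grey not called, and open points mark genes with every library of a group at or under 3 counts, whose fitted value is no bound. TBI has 4 blue genes, IgG RIT has 8 blue and 3 red, and CD45 RIT has 25 red and 1 blue.

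Marker levels moved with these changes, beside 0.921% higher and 3.38% lower over all genes tested. In TBI libraries the 10 stromal reticular markers summed to 86.6 to 328 CPM, against 1215 to 2703 CPM in untreated libraries, and 9 of the 10 were lower. The 8 osteoblast markers summed to 177 to 318 CPM against 768 to 1476 CPM, with 3 of 8 lower. Relative to the stromal marker sum, the fibrillar sum was 1.36 to 3.61 in untreated and 2.58 to 22.0 in TBI libraries, and the basement membrane sum was 0.0148 to 0.0306 in untreated and 0.0351 to 0.0698 in TBI libraries. Relative to the osteoblast marker sum, the fibrillar sum was 2.57 to 4.83 in untreated and 4.06 to 6.76 in TBI libraries, and the basement membrane sum was 0.0280 to 0.0421 and 0.0171 to 0.0650, with overlap for both. Haematopoietic markers (8 genes) summed to 133 to 1727 CPM in TBI libraries, with 3 of 8 lower, against 10804 to 13230 CPM in untreated libraries. The part of these markers' cells in the collagen values was not tested.

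After IgG radioimmunotherapy, collagen genes were called in both directions, but 3 higher of 37 is near the 5.75% of all genes called higher. Compared with untreated cells, 8 collagen genes were lower and 3 were higher, out of 37, while 16.4% of all genes tested were called (5.75% higher and 10.7% lower). The lower genes were 5 fibrillar chains (Col1a1, Col1a2, Col5a2, Col11a1 and Col11a2) and Col6a2, Col13a1 and Col22a1. The higher genes were Col9a1 and Col9a2 of type IX and Col10a1 of type X. None of the 7 tested basement membrane genes was called in edgeR's test; 2 had an unadjusted p under 0.05, and DESeq2 called 1 (Col4a4, with 0, 0 and 1 counts in IgG RIT).

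Col10a1 encodes the type X collagen of hypertrophic cartilage. It had 0, 1, 6 and 3 counts in untreated and 72, 5 and 350 counts in IgG RIT libraries, which is 0 to 0.200 CPM against 4.17, 0.249 and 18.4 CPM. The groups did not overlap, but IgG RIT replicate 2 lay just above the highest untreated library. The fold change was 6.46 (SE 1.40, adjusted p 0.0113). Col10a1 lies within the bounds of Nt5dc1, whose counts were also present in these libraries, and the use of strand in the counting is not given in the sources used here, so reads of the genes may have been mixed. In the CD45 RIT libraries Col10a1 was at 0 counts, which put it at least 46.5-fold lower there than in IgG RIT libraries (adjusted p 0.00863). Without IgG RIT replicate 3 the bound was 13.5-fold, and the call was kept.

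Type IX collagen, which sits on the surface of cartilage fibrils, is a trimer of 3 different chains. Col9a2 had 1, 0, 0 and 9 counts in untreated and 109, 168 and 63 counts in IgG RIT libraries (6.31, 8.36 and 3.31 CPM). Every IgG RIT library lay above every untreated library, and the fold change was 6.12 (SE 1.18, adjusted p 0.00617). Col9a1 stood at 0.0693 to 0.236 CPM in untreated and at 0.347, 0.249 and 4.73 CPM in IgG RIT libraries (3.62, SE 1.12, adjusted p 0.0453). Without IgG RIT replicate 3, or without any 1 of the untreated libraries, Col9a1 was no longer called. Col9a3 had 97, 3 and 0 counts in IgG RIT and 0 to 48 in untreated libraries and was not called. The chains of type IX thus had their highest level in different IgG RIT libraries: Col9a1 in replicate 3, Col9a2 in replicate 2 and Col9a3 in replicate 1.

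**Figure D4:**
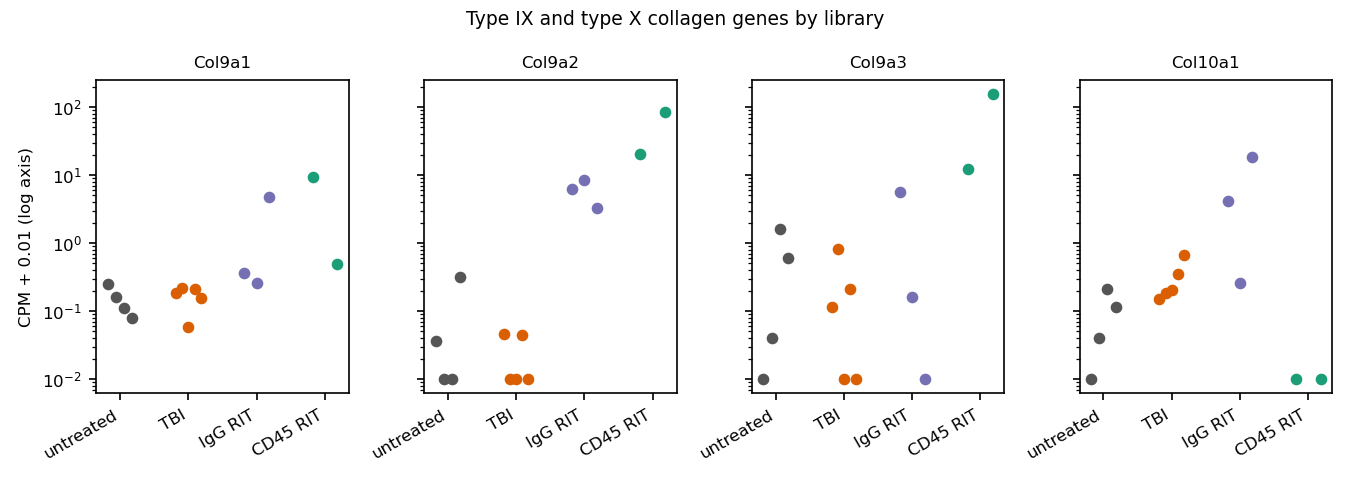
CPM plus 0.01 (log axis) of the 3 type IX chain genes and of Col10a1 in each library, 1 point per library; points at the bottom are libraries with 0 counts. Col9a2 is above all untreated and TBI libraries in all 3 IgG RIT and both CD45 RIT libraries, and Col10a1 is at 0 in both CD45 RIT libraries.

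The type I genes fell with IgG RIT. Col1a2 stood at 569, 33.3 and 198 CPM in IgG RIT replicates 1 to 3, all below the lowest untreated value of 946 CPM, for a fold change of -2.91 (SE 0.76, adjusted p 0.0240). Col1a1 stood at 447, 13.2 and 128 CPM, below the lowest untreated value of 630.2 CPM (-2.82, SE 0.88, adjusted p 0.0462). Col5a2, a type V chain that helps start fibrils, stood at 6.94, 0.846 and 8.14 CPM against 25.7 to 66.5 CPM in untreated libraries, and its log2 fold change was -3.12 (SE 0.66, adjusted p 0.00890). Col5a1 did not follow it, at 51.6, 51.0 and 44.1 CPM in IgG RIT and 45.9 to 76.0 CPM in untreated libraries (-0.31, SE 0.21, adjusted p 0.341). The ratio of Col5a1 to Col5a2 per length was therefore 5.86, 47.5 and 4.27 in IgG RIT libraries, above the 0.801 to 1.60 of untreated libraries.

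Type XI chains were lower, with Col11a1 at 10.4, 1.29 and 1.84 CPM (-2.60, SE 0.80, adjusted p 0.0440) and Col11a2 at 17.1, 2.39 and 13.4 CPM (-2.25, SE 0.64, adjusted p 0.0324). The untreated ranges were 10.8 to 47.3 CPM for Col11a1 and 33.6 to 63.6 CPM for Col11a2, so neither gene overlapped. Type II, which shares fibrils with type XI in cartilage, was not lower: Col2a1 stood at 42.3, 19.8 and 63.1 CPM in IgG RIT against 34.3, 6.22, 59.1 and 34.3 CPM in untreated libraries (0.32, SE 0.77, adjusted p 0.815), and its sign turned when the library sizes were not scaled. Per length, Col2a1 was 0.110, 1.74 and 0.574 of Col1a1 in IgG RIT replicates 1 to 3 and 0.00632 to 0.109 in untreated libraries. Col3a1 overlapped between the groups (-1.28, SE 0.96, adjusted p 0.381), with IgG RIT replicate 3 at 24.3 CPM and replicates 1 and 2 at 5.96 and 3.33 CPM.

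Col22a1, a fibril-associated collagen of tissue junctions, had 0, 0 and 3 counts in IgG RIT libraries and 489, 244, 101 and 456 in untreated libraries. That is at least 61.3-fold lower against the floor of 3 counts per library (adjusted p 0.00315). Col13a1, a transmembrane collagen of cell adhesion sites, stood at 0.116, 0.0995 and 0.946 CPM against 1.17 to 11.6 CPM (-3.78, SE 1.07, adjusted p 0.0321). Col6a2 stood at 2.55, 8.51 and 15.3 CPM against 24.0 to 38.4 CPM (-1.73, SE 0.50, adjusted p 0.0356). For none of these 3 genes did the groups overlap.

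The remaining abundant non-fibrillar chains had lower means that did not pass the test. Col4a1 stood at 6.77, 6.22 and 12.3 CPM in IgG RIT, below all untreated libraries (-1.19, SE 0.42, adjusted p 0.0745). Col4a2 stood at 10.3, 0.149 and 5.04 CPM and overlapped (-1.43, SE 0.94, adjusted p 0.313). Col6a1 was at 5.27, 19.6 and 28.2 CPM (-1.35, SE 0.54, adjusted p 0.107), Col8a1 at 6.02, 4.98 and 24.1 CPM (-1.35, SE 0.60, adjusted p 0.139), Col16a1 at 1.45, 2.69 and 0.0525 CPM (-2.41, SE 1.19, adjusted p 0.179) and Col6a3 at 1.10, 0.0995 and 1.42 CPM (-2.003, SE 1.12, adjusted p 0.234). IgG RIT replicate 3 was the highest of the 3 libraries for Col6a1, Col8a1 and Col4a1. Col24a1 had 0 counts in all 3 IgG RIT libraries and 1 to 229 in untreated libraries, and edgeR's test did not call it (adjusted p 0.0535). It was called lower by DESeq2, without scaling factors and without untreated replicate 2.

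The IgG RIT result depended on the scaling, on single libraries and on the submitters' library numbers. The 3 higher and 8 lower genes became 3 higher and 5 lower with RLE factors, 2 higher and 13 lower without scaling factors, and 3 higher and 9 lower with DESeq2. Without scaling Col4a1, Col5a1, Col6a1, Col8a1 and Col24a1 were also called lower, and Col9a1 lost its call. The 11 calls became 5 to 9 when 1 library was left out. The count was 6 without untreated replicate 1 or 2, 5 without untreated replicate 4, 6 without IgG RIT replicate 2 and 7 without IgG RIT replicate 3. Col9a2, Col10a1, Col5a2 and Col22a1 kept their calls in all 7 of these fits, and Col1a2 lost its call without IgG RIT replicate 3. Col1a1 and Col6a2 each lost theirs without any 1 of the untreated libraries, Col1a1 also without IgG RIT replicate 2 or 3, and Col6a2 without IgG RIT replicate 1 or 2. Col11a1 and Col11a2 lost theirs without untreated replicate 1, 2 or 4 or IgG RIT replicate 2 or 3, and Col13a1 without untreated replicate 2 or 4 or IgG RIT replicate 1 or 2. With a term for library numbers of 10 and higher, which rests on TBI replicate 6 alone, none of the 11 was called.

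Markers moved with the IgG RIT changes as well, beside 5.75% higher and 10.7% lower over all genes tested. Counts of 1 or 2 genes in a marker list are not far from these shares. The 6 chondrocyte markers summed to 4.62, 8.94 and 5.13 CPM in IgG RIT, against 0 to 2.03 CPM in untreated and 0.0511 to 0.853 CPM in TBI libraries, and 1 of the 4 tested (Cnmd) was higher; Matn3, a cartilage matrix gene, was at 0 in all IgG RIT libraries and Acan, the gene of the main cartilage proteoglycan, had 1 to 7 counts there. Osteoblast markers summed to 223, 92.9 and 268 CPM with 4 of 8 lower, and stromal reticular markers to 297, 293 and 694 CPM with 2 of 10 lower. Erythroid markers had 8 of 9 genes higher. Haematopoietic markers summed to 602 to 872 CPM with 3 of 8 lower, and 2 of 12 tested endothelial markers (Egfl7 and Pecam1) were lower. Their part in the collagen values was not tested.

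Between IgG RIT and TBI, 12 collagen genes had an unadjusted p under 0.05 and DESeq2 called 6, without a share over all genes counted. In edgeR's test 1 collagen gene was higher after IgG RIT and 0 were lower, and that test called 0.242% of all genes (0.0697% higher and 0.172% lower). It was Col9a2, at 0 or 1 count in every TBI library and therefore at least 44.7-fold higher in IgG RIT libraries (adjusted p 0.0215). Without TBI replicate 1, 3, 4 or 5, or without IgG RIT replicate 1 or 2, the call was lost, while the bound stayed between 35.9-fold and 54.8-fold with any 1 library left out. Without scaling factors Col22a1 was called lower as well. Without TBI replicate 6 there were 4 calls: Col9a2, Col10a1 and Col4a1 higher and Col22a1 lower.

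CD45-targeted radioimmunotherapy had the broadest change. Compared with untreated cells, 25 collagen genes were higher and 1 was lower among the 37 tested, or 8 of 11 fibrillar, 6 of 7 basement membrane and 11 of 19 other collagens higher. Over all genes 33.1% were called, 14.5% higher and 18.6% lower. The median fold change was 2.88 (log2) for the fibrillar genes, 5.05 for the basement membrane genes and 3.51 for the other collagens, against -0.37 over all genes tested. With genes at the detection floor set to their bounds, the medians were 2.88, 5.08 and 3.51. The basement membrane median of 5.05 is the value of Col4a3. Of the 6 calls in that class, those of Col4a3, Col4a4 and Col4a5 rest on 1 CD45 RIT library each. Only 2 libraries stood for this group. Of the 25 higher genes, 22 had both CD45 RIT libraries above all untreated ones. That count is among genes already called on the same values, and its share over all genes was not counted.

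Both main chains of type IV collagen rose after CD45 RIT. Col4a1 stood at 806 and 531 CPM in CD45 RIT replicates 1 and 2, against 17.6 to 20.8 CPM in untreated libraries. Both were above every other library, and the fold change was 5.12 (SE 0.48, adjusted p 1.71e-05). Col4a2 stood at 409 and 486 CPM against 8.67 to 25.4 CPM (5.01, SE 1.04, adjusted p 0.00349). Per length, Col4a1 was 1.92 and 1.06 times Col4a2 in the 2 libraries, within the untreated range of 0.684 to 1.99.

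Col4a3, Col4a4 and Col4a5, which form the specialised type IV networks of kidney, lung and some other tissues, were seen in 1 CD45 RIT library each, and Col4a6 had 0 counts in both. Col4a3 had 129 counts in replicate 1 and 0 in replicate 2, Col4a5 had 288 and 0, and Col4a4 had 0 and 1421. Untreated libraries had 2 to 8 counts of Col4a3 and 0 of Col4a4 and Col4a5. The test called all 3 higher (adjusted p 0.0182, 0.00760 and 0.0216 for Col4a3, Col4a4 and Col4a5), although 1 CD45 RIT library of each was at 0. Without the library that held the counts, none of the 3 was called. Col4a3 and Col4a4 lie head to head on chromosome 1 (start sites at 82586921 and 82586849), yet their counts were in different libraries. Col18a1, the source of endostatin, stood at 9.69 and 48.5 CPM against 0.234 to 4.99 CPM (4.03, SE 1.31, adjusted p 0.0330). It overlaps Slc19a1.

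The type I genes were also higher, by a smaller factor. Col1a1 stood at 5432 and 12973 CPM in CD45 RIT replicates 1 and 2, above the untreated maximum of 2071 CPM (2.73, SE 0.87, adjusted p 0.0296). Col1a2 stood at 8519 and 19147 CPM against at most 2899 CPM (2.79, SE 0.75, adjusted p 0.0139). The ratio of the 2 chains per length was 0.575 and 0.611, close to the 0.601 to 0.644 of untreated libraries; it was 0.357 in IgG RIT replicate 2 and between 0.575 and 0.722 in the other 13 libraries. Lengths here are of the longest coding transcript; with the deposited gene lengths, in which Col1a2 is 12426 bases, the ratio was 1.26 to 1.35 in untreated libraries.

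Fibrillar chains of types II, III and V rose too. Col3a1 stood at 199 and 825 CPM against 15.6 to 44.5 CPM (4.23, SE 1.05, adjusted p 0.00908), and Col2a1 at 221 and 1339 CPM against 6.22 to 59.1 CPM (4.54, SE 0.88, adjusted p 0.00231). Col5a1 was the most even of the group, at 449 and 440 CPM against 45.9 to 76.0 CPM (2.88, SE 0.23, adjusted p 6.41e-06). Col5a2 stood at 344 and 556 CPM (3.29, SE 0.64, adjusted p 0.00237), Col11a1 at 77.4 and 394 CPM (3.11, SE 0.80, adjusted p 0.0109) and Col11a2 at 111 and 446 CPM (2.41, SE 0.64, adjusted p 0.0134). Col5a3 just missed the threshold at 48.6 and 26.6 CPM (1.96, SE 0.71, adjusted p 0.05001). Col24a1 was the fibrillar gene that went the other way in its values, with 0 and 1 counts against 1 to 229, and edgeR's test did not call it (adjusted p 0.103).

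Among other collagens, Col6a1 stood at 587 and 879 CPM against 23.9 to 73.6 CPM (4.02, SE 0.59, adjusted p 0.000384) and Col6a2 at 384 and 237 CPM against 24.0 to 38.4 CPM (3.41, SE 0.53, adjusted p 0.000548). Col6a3 stood at 28.9 and 144 CPM (4.63, SE 1.17, adjusted p 0.0103). Col8a1 stood at 318 and 521 CPM against 19.5 to 41.7 CPM (3.82, SE 0.64, adjusted p 0.000953). All 4 were above every untreated library in both CD45 RIT libraries. Col16a1 stood at 65.5 and 340.2 CPM (4.76, SE 1.24, adjusted p 0.0118) and Col22a1 at 70.4 and 153 CPM against 3.37 to 15.8 CPM (3.51, SE 0.86, adjusted p 0.00894). Col12a1, a fibril-associated chain of dense connective tissue, stood at 21.9 and 162 CPM against 1.82 to 5.04 CPM (4.54, SE 1.04, adjusted p 0.00602), and Col13a1 at 25.7 and 64.8 CPM against 1.17 to 11.6 CPM (3.07, SE 0.98, adjusted p 0.0314). The 11 tested genes that edgeR's test did not call were Col5a3, Col24a1, Col27a1, Col4a6, Col6a5, Col7a1, Col10a1, Col20a1, Col23a1, Col26a1 and Col28a1. Of these Col5a3 and Col27a1 (19.9 and 24.8 CPM against 0.0262 to 5.54 CPM) lay above all untreated libraries, and the other 9 had at most 78 counts in a CD45 RIT library. DESeq2 made 26 calls among all collagen genes, 22 of them shared. It called Col5a3, Col27a1 and the untested Col8a2 higher and Col24a1 lower. For Col3a1, Col18a1, Col9a1 and Col9a3 it gave no adjusted p, so their calls could not be compared. With RLE factors edgeR's test also called Col5a3 and Col27a1 higher.

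All type IX chains were higher after CD45 RIT. Col9a2 stood at 20.0 and 85.5 CPM against 0 to 0.312 CPM in untreated libraries (9.26, SE 1.34, adjusted p 0.000348), Col9a3 at 12.4 and 154 CPM against 0 to 1.60 CPM (7.23, SE 2.15, adjusted p 0.0224) and Col9a1 at 9.44 and 0.481 CPM against 0.0693 to 0.236 CPM (5.10, SE 1.22, adjusted p 0.00781). Col9a2 and Col9a3 were higher in replicate 2, and Col9a1 in replicate 1. Col25a1, a transmembrane collagen of neurons, was the gene called lower: it was at 0 counts in each CD45 RIT library and at 470, 6, 9 and 74 in untreated libraries, at least 23.5-fold lower with an adjusted p of 0.0485. The call was lost without either CD45 RIT library, without untreated replicate 1 or 4, with RLE factors and without the filter. Untreated replicate 1 carried most of the untreated level, and without it the bound was 6.20-fold.

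CD45 RIT replicate 2 carried much of the count of calls. Without it 14 collagen genes were called, of which 13 were among the 25 higher genes: Col2a1, Col5a1, Col5a2, Col4a1, Col4a2, Col4a3, Col4a5, Col6a1, Col6a2, Col8a1, Col9a1, Col9a2 and Col22a1. The calls lost included both type I genes, Col3a1, both tested type XI genes, Col6a3, Col16a1, Col18a1 and Col9a3. Without replicate 1 there were 24 calls, of which 22 were among the 25, and Col9a1, Col4a3 and Col4a5 lost theirs. Leaving out an untreated library also ended the call of Col1a1 (replicate 2, 3 or 4), Col18a1 and Col13a1 (replicate 1, 2 or 3) and Col9a3 (replicate 2 or 4). With unscaled library sizes Col1a1, Col11a2, Col13a1 and Col18a1 were not called. With the term for library numbers of 10 and higher, 5 genes were called: Col2a1, Col5a1, Col4a1 and Col12a1 higher and Col25a1 lower.

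The other treatments were also set beside CD45 RIT, which needs no untreated library. Compared with IgG RIT, whose libraries have numbers in the same range, 23 collagen genes were higher and 1, Col10a1, was lower; over all genes 37.7% were called, 20.2% higher and 17.5% lower. Col9a2 was not among them (3.14, SE 1.17, adjusted p 0.0514). Compared with TBI, 25 were higher and 0 lower in edgeR's test, which called 38.6% of all genes, 19.6% higher and 19.0% lower. Of the collagen genes 28 had an unadjusted p under 0.05 and DESeq2 called 23, without a share over all genes counted. Col4a1 differed from TBI by 7.56 (SE 0.47, adjusted p 7.12e-07) and Col8a1 by 7.05 (SE 0.66, adjusted p 7.66e-06).

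Stromal reticular markers rose with the collagens after CD45 RIT. Their sum was 25432 and 28760 CPM in replicates 1 and 2, and 10 of 10 genes were higher than in untreated cells. The fibrillar sum was 0.427 and 0.975 of the stromal marker sum, below the 1.36 to 3.61 of untreated libraries, and the basement membrane sum was 0.0346 and 0.0306 of it, at the upper end of or above the untreated 0.0148 to 0.0306. Relative to the osteoblast marker sum the fibrillar sum was 4.81 and 3.08, within the untreated 2.57 to 4.83, and the basement membrane sum was 0.390 and 0.0965, above the untreated 0.0280 to 0.0421. Osteoblast markers summed to 2256 and 9113 CPM (6 of 8 genes higher), fibroblast markers to 343 and 3194 CPM (3 of 6 tested higher and 1 lower), chondrocyte markers to 24.6 and 164 CPM (2 of 4 tested higher) and pericyte and smooth muscle markers to 74.1 and 148 CPM (4 of 7 higher). Of the 12 tested endothelial markers 3 were higher (Flt4, Kdr and Plvap) and 3 lower (Egfl7, Pecam1 and Tie1). These endothelial counts are not far from the shares over all genes tested, 14.5% higher and 18.6% lower. Pecam1, which encodes the endothelial adhesion protein CD31, stood at 0.366 and 0.192 CPM against 26.7 to 65.3 CPM in untreated libraries (-7.30, SE 1.03, adjusted p 0.000304). Haematopoietic markers summed to 82.2 and 53.6 CPM with 6 of 8 lower, below the sums in untreated, TBI and IgG RIT libraries. The part of these cell types in the collagen values was not tested.

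**Figure D5:**
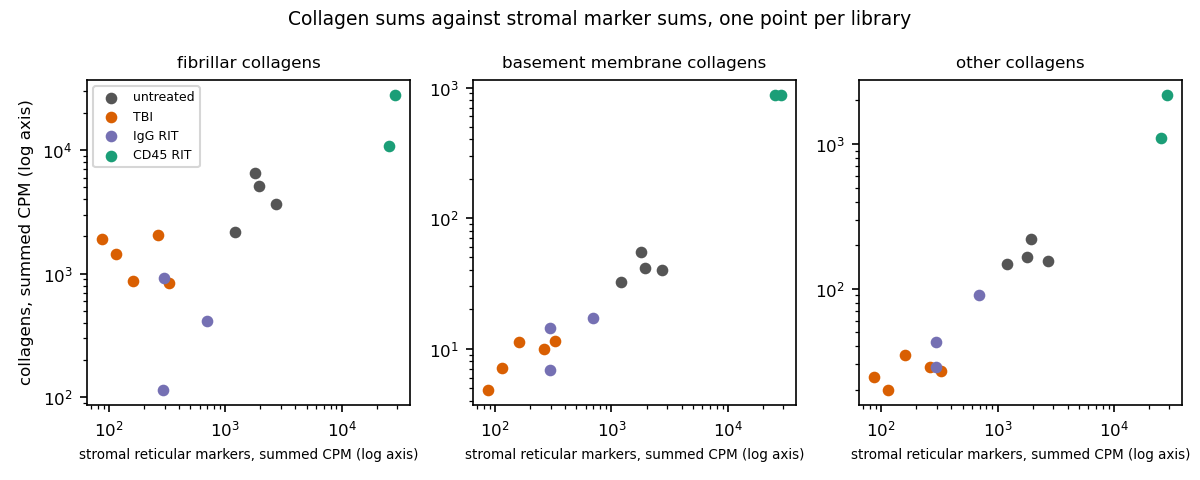
Summed CPM of each collagen class against the summed CPM of 10 stromal reticular markers, both on log axes, with 1 point per library coloured by group. CD45 RIT libraries lie at the upper right, at 25432 and 28760 CPM of stromal markers, and TBI libraries at the left, at 86.6 to 328 CPM.

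Genes that fold, process, bind and degrade collagen were counted for comparison. The shares over all genes tested were 0.921% higher and 3.38% lower after TBI and 5.75% and 10.7% after IgG RIT. After CD45 RIT they were 14.5% and 18.6%. Counts of 1 or 2 genes in a list after IgG RIT or CD45 RIT are not far from these shares. Of 15 tested genes for chain folding and modification, 3 were lower after TBI, 7 were lower and 1 higher after IgG RIT, and 11 were higher after CD45 RIT. Serpinh1, the collagen chaperone HSP47, stood at 183, 190.2, 89.2 and 198 CPM in untreated libraries. It stood at 22.3 to 47.9 CPM in TBI (-2.34, SE 0.34, adjusted p 0.00319), at 37.2, 23.2 and 71.8 CPM in IgG RIT (-1.91, SE 0.40, adjusted p 0.00905), and at 1746 and 2138 CPM in CD45 RIT (3.56, SE 0.42, adjusted p 8.76e-05). It did not overlap with untreated in any treatment. P4hb, a subunit of prolyl 4-hydroxylase, was lower after IgG RIT (-1.53, SE 0.31, adjusted p 0.00751). Ppib, the cyclophilin of the endoplasmic reticulum, was higher after IgG RIT (0.79, SE 0.20, adjusted p 0.0220) and CD45 RIT (0.72, SE 0.23, adjusted p 0.0285).

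Of 11 tested genes for propeptide removal and cross-linking, 4 were lower after TBI, 4 were lower after IgG RIT, and 8 were higher and 1 lower after CD45 RIT. Adamts2, the procollagen N-proteinase, was lower after TBI (-2.67, SE 0.48, adjusted p 0.00934) and higher after CD45 RIT (4.42, SE 0.60, adjusted p 0.000219). Bmp1, the C-proteinase, was lower after TBI (-1.75, SE 0.37, adjusted p 0.0203) and IgG RIT (-1.85, SE 0.44, adjusted p 0.0156) and higher after CD45 RIT (4.11, SE 0.47, adjusted p 6.48e-05). Lox, which cross-links collagen, was called only in CD45 RIT of the 3 treatments set against untreated cells (4.29, SE 0.65, adjusted p 0.000468), with -1.72 after TBI (SE 0.51, adjusted p 0.0790). Lox differed in CD45 RIT from TBI (6.00, SE 0.63, adjusted p 1.77e-05) and from IgG RIT (5.13, SE 0.75, adjusted p 0.000276), and IgG RIT and TBI did not differ past the threshold (0.87, SE 0.54, adjusted p 0.407).

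Of 10 collagen receptor genes, 3 were lower after TBI and 2 after IgG RIT, and 7 were higher and 1 lower after CD45 RIT. The list of 9 collagen degradation genes holds the inhibitor Timp2 beside enzymes. Of these 9, 3 were lower after TBI, 0 were lower after IgG RIT and 8 were higher after CD45 RIT. After IgG RIT 3 of the 9 had an unadjusted p under 0.05, and DESeq2 called 0. Itgb1, the shared beta chain of the collagen-binding integrins, stood at 571 and 1033 CPM in CD45 RIT against 172 to 239 CPM in untreated libraries (2.01, SE 0.21, adjusted p 3.57e-05). Ddr2, a receptor kinase for fibrillar collagen, rose by 4.72 (SE 0.93, adjusted p 0.00262). Itga1, another gene of the receptor list, rose by 4.61 (SE 1.14, adjusted p 0.00935). Mmp13, a collagenase, stood at 1234 and 3128 CPM against 74.1 to 116 CPM (4.61, SE 0.55, adjusted p 9.08e-05). Timp2, an inhibitor of such enzymes, was lower after TBI (-2.19, SE 0.49, adjusted p 0.0272) and higher after CD45 RIT (4.78, SE 0.63, adjusted p 0.000184). Mmp2, of the same list, was higher after CD45 RIT (4.36, SE 0.55, adjusted p 0.000138) and not called after TBI (-1.46, SE 0.43, adjusted p 0.0770).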

How the data were processed

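The authors deposited whole-number read counts per gene for 14 libraries made with SMART-Seq v4 and Nextera XT kits, per the labels' protocols, without normalization as far as the values show. Gene lengths in bases are another deposited column. The submitters' processing notes name STAR 2.7.7a, FastQC 0.11.9 and edgeR 3.36.0 and the build hg38, although the gene identifiers are those of mouse genes and 54587 of them have the GENCODE M21 (GRCm38) coordinates. The counter, its use of strand and its treatment of multimapping reads are not given in the sources used here. TBI replicate 2 was not analysed here. The libraries carry no molecular identifiers, so intervals and floors cover counting error only.

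Samples were grouped by treatment label. In R 4.3.3, edgeR 4.0.16 fitted 1 coefficient per group to all 14 libraries (TMM factors, filterByExpr with a minimum count of 10 and a minimum total of 15, robust glmQLFit and glmQLFTest), with 6 contrasts and Benjamini-Hochberg adjustment within each; an adjusted p under 0.05 was a call. An SE is the absolute log2 fold change over the square root of F. The floor was 3 counts per library, and a group at or under it gave a bound on the fold. Class and list sums were on total counts unless stated. The steps were tested on simulated counts. Alternatives were RLE factors, no scaling, no filter, DESeq2 1.42.0, a replicate block, a term for library numbers of 10 and higher, and leaving out each library. The members, classes and lists, and the rule for named genes (the 5 highest of each class, genes called after TBI or IgG RIT, chains of a trimer, and the 3 highest genes of each of 4 pathway lists), were chosen with earlier results of these data known; Col8a2, Col24a1 and Col25a1, among others, were added after their values were seen.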

Additional observations from a re-analysis of the deposited data

Results flagged for a closer look

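Of 96 values examined over the untreated (n = 4) and TBI (n = 5) groups, 18 had 1 library far from the others of its group by Dixon's criterion. Chance flags about 1 in 20 of normally distributed values. The values here were CPM and ratios without logarithm, some of a few counts, so that rate may not hold and 18 cannot be set against it.

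In untreated libraries, replicate 1 was high for Col4a2 (25.4 CPM, others 8.67 to 11.5) and low for the per-length ratio of Col4a1 to Col4a2 (0.684, others 1.77 to 1.99). Replicate 2 was low for Col5a3, a type V chain (2.21 CPM, others 11.5 to 13.1), and high for Col4a3 (0.239 CPM). Replicate 3 was high for Col26a1 (1.63 CPM) and for the ratio of Col2a1 to Col1a1 (0.109, others at most 0.0235). Replicate 4 was high for Col6a5 (0.762 CPM) and Col9a2 (0.312 CPM), each under 1 CPM.

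In TBI libraries, replicate 6 was high for Col3a1 (20.8 CPM, others 1.52 to 5.73), for the ratio of Col3a1 to Col1a2 (0.0377, others at most 0.00725), and for Col4a3 (1.87 CPM), Col4a6 (0.789 CPM) and Col25a1 (0.933 CPM). It is the TBI library with the highest erythroid marker sum, and the part of that in these values was not tested. Replicate 3 was high for Col9a3 (0.795 CPM) and Col20a1 (0.484 CPM), replicate 5 for Col5a3 (11.7 CPM), replicate 4 for the ratio of Col2a1 to Col1a1 (0.102), and replicate 1 for Col6a5 (0.0354 CPM, a single count).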

How the results depend on the processing

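The 4 calls after TBI became 0 with a replicate block and 10 with DESeq2, and 4 to 6 when 1 library was left out. The 11 calls after IgG RIT became 8 with RLE factors, 15 without scaling, 7 without the filter, 3 with the block, 0 with the library number term and 5 to 9 with 1 library left out; the 26 after CD45 RIT became 13, 5 and 14 to 24 for the block, the number term and leaving out 1 library. CD45 RIT against IgG RIT gave 24 calls, 19 to 22 with 1 IgG RIT library left out, 19 with the block and 24 with the number term. CD45 RIT against TBI gave 25 calls, 23 to 25 with 1 TBI library left out, 18 with the block and 17 with the number term. The 1 call between IgG RIT and TBI became 2 without scaling, 0 with the block, 0 with the number term, 6 with DESeq2 and 0 to 4 with 1 library left out. The cause of these shifts was not tested.

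Signs turned for Col2a1 in IgG RIT (-0.21 without scaling, -0.03 without untreated replicate 2, -0.11 without IgG RIT replicate 3; -0.11 to 0.74 over all libraries left out), Col6a3 in IgG RIT (4.56 with the number term), Col4a3 in CD45 RIT (-4.59 to 6.02, lowest without CD45 RIT replicate 1), Col4a4 in CD45 RIT against IgG RIT and TBI (-2.27 and -5.41 without CD45 RIT replicate 2, up to 12.7 and 8.28 with others left out) and Col6a5 in CD45 RIT against TBI (-1.38 to 8.86, lowest without CD45 RIT replicate 1).

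Replicate numbers did not pair the libraries: 13 same-numbered pairs correlated at r -0.090 to 0.139, with 1 over 0.1, and TBI replicates 5 and 6 add nothing to the block fit. The number term rests on TBI replicate 6. The median of all genes moved with the scaling, for CD45 RIT against untreated from -0.37 (TMM) to -0.13 (RLE) and -1.08 (none) on the log2 scale. DESeq2 gave no adjusted p for 14 gene values, and calls missing there for that reason are not a disagreement between the methods. Bounds with 1 library left out were added after seeing the data. With 2 CD45 RIT libraries, a chain seen in 1 of them rests on that library.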
